A study of Mus musculus with 8 samples.

Results

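The 50 genes described here encode proteins of the mitotic spindle, the kinetochore and condensin, with the kinases, cyclins and phosphatases that start mitosis. They were chosen by name, with earlier results of these data known. All 50 were found by symbol among the 51912 genes of the count table and had enough counts to be tested. Cells that finish DNA replication raise cyclin B and Cdk1, condense their chromosomes with condensin and topoisomerase II, and build a spindle whose microtubules attach to kinetochores. A checkpoint holds the anaphase promoting complex back until all kinetochores are attached, after which separase opens the cohesin rings. Most genes of this kind are transcribed late in the cell cycle, when B-Myb and Foxm1 join the MuvB complex at their promoters, and in resting cells the DREAM complex holds the same promoters silent. Sin3a encodes the scaffold of a histone deacetylase corepressor complex.

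RNA was sequenced from mesenchymal cells sorted from mouse lung at embryonic day 16. Sin3a CKO embryos were Tbx4rtta; tetocre; Sin3a F/F, with both copies of Sin3a floxed, and Control embryos were Tbx4rtta; tetocre; Sin3a F/+, with 1 floxed copy. Both groups thus carried the rtTA driven by Tbx4, the tetO-Cre and at least 1 floxed allele, and the mothers of both received doxycycline from embryonic day 12. The 4 libraries of each group are called biological replicates, and totals ran from 96098322 to 108493347 counts. The labels name neither the animals behind each library nor the sorting gate, nor how complete the deletion was.

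Mesenchyme markers dominated every library, with summed levels of 12879 to 14449 CPM (counts scaled to library size) for 12 markers in Sin3a CKO libraries, against 17637 to 24166 CPM in Control libraries. Sin3a itself was at 56.6, 61, 53.2 and 61 CPM in Sin3a CKO 1 to 4, against 53.7, 46.8, 46.2 and 58.7 CPM in Control 1 to 4. The groups overlapped, with a log2 fold change of 0.17 ± 0.09 (SE; adjusted p = 0.191), Sin3a CKO over Control. Here and throughout, the adjusted p is that of edgeR's quasi-likelihood test with Benjamini-Hochberg adjustment over all tested genes, and a gene is said to rise or fall where it is under 0.05. A count over the whole gene can include exons outside the floxed part, so this value does not check the genotype. Libraries also held RNA of other cell types. Summed over 13 erythroid markers, levels ran from 1113 to 4318 CPM in Sin3a CKO libraries, against 157 to 932 CPM in Control libraries. For 12 epithelial markers the range was 49.5 to 1331 CPM in Sin3a CKO libraries, against 44 to 461 CPM in Control libraries. Epithelial sums were high in Sin3a CKO 1, 2 and 3 and in Control 3, at 614, 413, 1331 and 461 CPM, and low in Sin3a CKO 4 and in Control 1, 2 and 4, at 49.5, 58.1, 61.7 and 44 CPM. In bulk RNA, fewer cells of a type and less RNA per cell cannot be told apart.

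Promoter sequences show what the mitotic genes share at the DNA level. RefSeq promoter windows on GRCm38.p6, from 250 bases before to 50 after the start, were at hand for 41 of the 50 genes, in 44 windows. On either strand, the letters TTTGAA of the cell cycle homology region (CHR), the element bound by MuvB, were found in 72.7% of these windows. They were found in 17.5% of 57 windows of 48 genes of DNA replication and S phase, and in 17.9% of all 32851 promoter windows. The letters CCAAT, bound by NF-Y, stood in 77.3% of the mitotic windows, in 56.1% of the S phase windows and in 37.4% of all windows. CHR and CCAAT were found together in 65.9%, 8.77% and 6.95% of mitotic, S phase and all windows, in that order. An E2F motif, searched as TTTCCCGC, TTTCGCGC, TTTGCCGC or TTTGGCGC, was found in 9.09% of mitotic windows, 29.8% of S phase windows and 2.26% of all windows. A match is a description of the letters and not of binding.

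The following sequences run from 150 bases before to 30 after the RefSeq start, on the gene's strand, with CHR, CCAAT and E2F matches in capitals. Cdk1, Ccnb2 and Top2a show the layout of CHR with several CCAAT boxes in genes that did not pass the test in the comparison. Cks1b and Ncapd2 are shown for genes that rose, and Mcm6, a subunit of the replicative helicase, for the S phase genes. Mcm6 itself had a log2 fold change of 0.41 ± 0.12 (SE; adjusted p = 0.0219). All 6 genes lie on the minus strand. In order, the windows are chr10:69352883-69353062, chr9:70421525-70421704, chr11:99024160-99024339, chr3:89418262-89418441, chr6:125191557-125191736 and chr1:128359676-128359855.
Cdk1: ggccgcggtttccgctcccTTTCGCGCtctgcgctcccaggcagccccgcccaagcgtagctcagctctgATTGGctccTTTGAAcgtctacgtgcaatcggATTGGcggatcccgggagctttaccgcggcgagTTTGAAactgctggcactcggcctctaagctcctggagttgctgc
Ccnb2: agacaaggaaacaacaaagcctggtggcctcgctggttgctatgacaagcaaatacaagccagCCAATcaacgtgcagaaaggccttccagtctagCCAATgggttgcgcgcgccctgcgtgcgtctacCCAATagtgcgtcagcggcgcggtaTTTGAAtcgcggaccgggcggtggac
Top2a: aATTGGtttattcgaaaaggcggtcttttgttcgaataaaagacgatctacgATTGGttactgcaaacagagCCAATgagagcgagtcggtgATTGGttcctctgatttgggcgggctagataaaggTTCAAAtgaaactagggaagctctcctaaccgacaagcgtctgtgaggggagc
Cks1b: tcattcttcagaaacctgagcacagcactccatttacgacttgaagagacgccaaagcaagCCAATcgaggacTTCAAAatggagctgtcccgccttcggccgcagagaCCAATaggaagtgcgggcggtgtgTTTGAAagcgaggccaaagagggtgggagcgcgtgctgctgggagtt
Ncapd2: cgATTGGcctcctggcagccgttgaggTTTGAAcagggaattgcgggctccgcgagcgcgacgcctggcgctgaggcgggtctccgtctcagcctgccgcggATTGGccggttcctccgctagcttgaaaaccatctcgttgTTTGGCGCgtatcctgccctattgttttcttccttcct
Mcm6: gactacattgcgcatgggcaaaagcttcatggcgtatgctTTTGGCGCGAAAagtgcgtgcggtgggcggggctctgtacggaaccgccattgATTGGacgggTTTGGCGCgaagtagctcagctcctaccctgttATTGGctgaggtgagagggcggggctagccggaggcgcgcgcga
The 5 mitotic promoters have both CHR and CCAAT letters, and those of Cdk1 and Ncapd2 also have an E2F match. Mcm6 has CCAAT and E2F letters and no CHR in the printed stretch. The genes printed were chosen after their values were seen. In the same stretch Mad2l1 and Mybl2, which rose, have no match, and Cdca3, which also rose, has CCAAT letters and no CHR. In Mcm6 the E2F matches TTTGGCGC and GCGCGAAA, the reverse complement of TTTCGCGC, overlap in 1 run of capitals. Of the mitotic windows, CHR letters were found in 4 of 7 windows (57.1%) of genes that rose and in 28 of 36 windows (77.8%) of genes that did not pass the test.

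The comparison of Sin3a CKO with Control asks whether the mitotic genes changed in the libraries in which S phase genes were higher. Of the 50 genes, 10 (20%) rose and 1 (2%) fell, while 39 did not pass the test. Among all 20315 genes tested, 17.3% rose and 16.1% fell. The share that rose was therefore near that of all genes, and the share that fell was below it. The log2 fold change, Sin3a CKO over Control, had a median of 0.10 over the 50 genes and of 0.044 over all tested genes. It ran from -0.46 for Cdc25b to 0.53 for Cdca3, and 34 values were positive. The same 11 genes had no overlap between the 4 Sin3a CKO and the 4 Control libraries, with 10 higher and 1 lower. Groups without overlap made up 18.5% of all tested genes for higher and 17.5% for lower values in Sin3a CKO.

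Libraries of the same group were ordered alike for most of the genes. Sin3a CKO 4 was the highest Sin3a CKO library for 39 of the 50 genes, Control 4 the highest Control library for 46, and Control 3 the lowest Control library for 49. The submitters' identifiers of the libraries share the prefix s686 for Sin3a CKO 4, Control 1 and Control 2, and s1244 for Sin3a CKO 1, 2 and 3 and Control 3. Control 4 alone has s722. Their meaning is not stated. The s1244 libraries are the 4 with the high epithelial sums, and the median log2 fold change of the 12 epithelial markers was 1.42 with group only and -0.024 with a term for the prefix. For the 13 erythroid markers the median was 2.69 with group only and 1.92 with that term. The part of epithelial and erythroid RNA in the results with that term was not tested. With a term for the prefix, which leaves Control 4 out of the contrast between groups, 28 of the 50 genes (56%) rose and 0 fell, against 19.4% and 16.3% of all tested genes. The median of the mitotic genes was then 0.27, and that of all tested genes -0.003. Sin3a was at 0.29 (adjusted p = 0.0332) in that fit. All 10 rises were kept and 18 more genes rose, while Cdc25b, at -0.30, had an adjusted p of 0.0502. Within the s686 libraries alone 47 of the 50 log2 fold changes were positive, with a median of 0.29. Of the 20315 tested genes 9939 were positive there, with a median of 0.001. Within the s1244 libraries 43 were positive, with a median of 0.26, against 10559 of all tested genes, with a median of 0.031. Both s686 and s1244 have 1 library on 1 side, Sin3a CKO 4 and Control 3 in that order, so values within them have no test. The contrast with the prefix term, and each adjusted p from it, rests on these libraries against the others of their prefix. The 50 genes moved together by library and are not replicates.

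**Figure D1:**
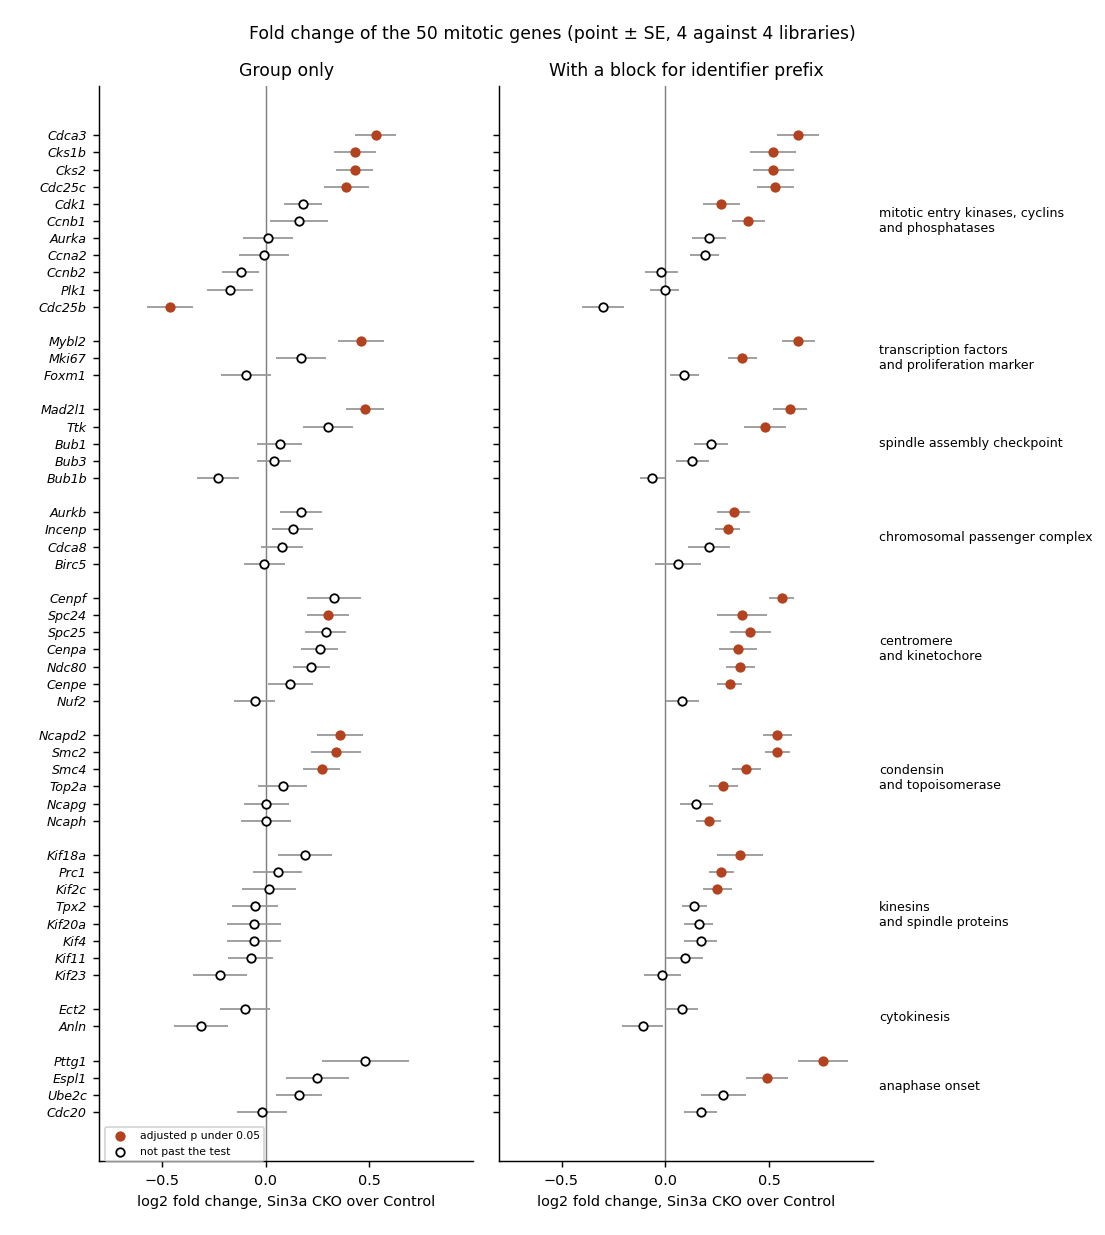
Log2 fold change of each of the 50 mitotic genes, Sin3a CKO over Control, by role, with the standard error as a bar. Filled points passed an adjusted p under 0.05: 11 genes with group as the only term (left) and 28 with a term for identifier prefix (right).

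**Figure D2:**
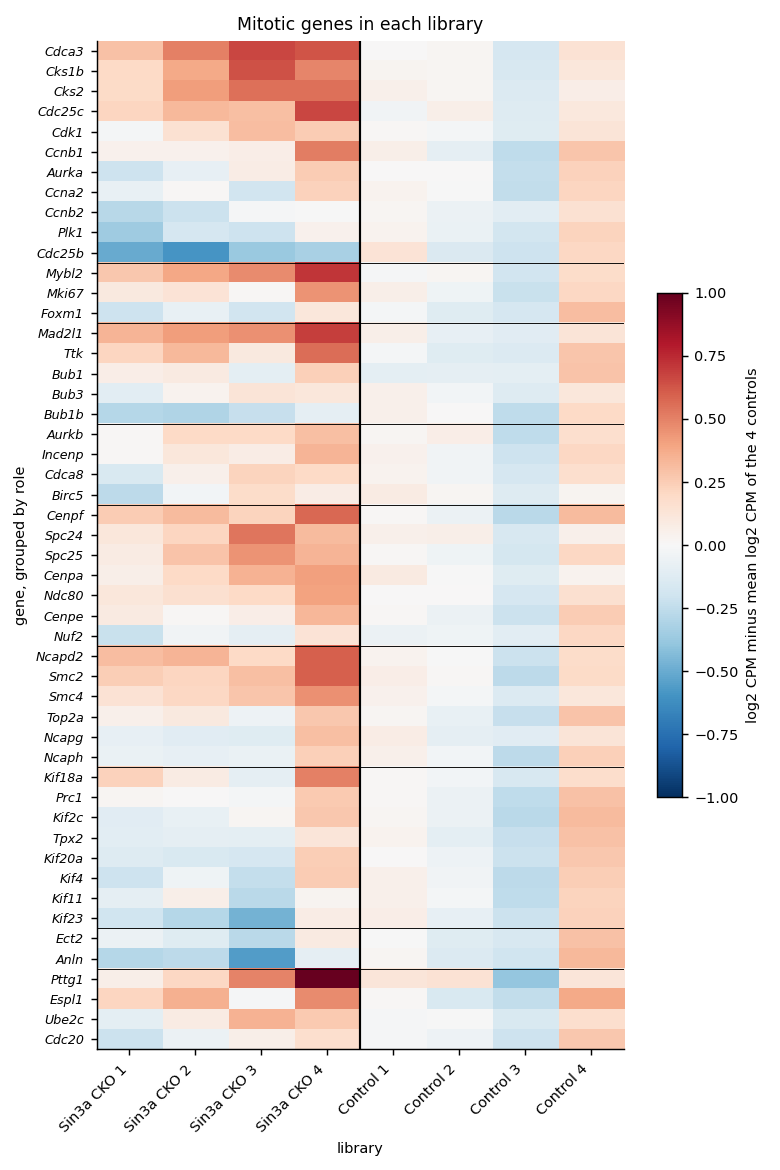
Level of each mitotic gene in each library as the colour-coded difference of its log2 CPM from the mean of the 4 Control libraries, with Sin3a CKO libraries on the left. Sin3a CKO 4 and Control 4 are the highest libraries of their groups for 39 and 46 of the 50 genes, and Control 3 is the lowest Control library for 49.

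Scaling bears on the balance of rises and falls. With upper-quartile scaling in place of TMM, the median of all tested genes fell by 0.11 on the log2 scale, to -0.064, and that of the mitotic genes was 0.001. Of all tested genes 13.7% then rose and 22.3% fell. Of the mitotic genes 7 rose and 6 fell, the falls being Cdc25b, Ccnb2, Plk1, Bub1b, Kif23 and Anln. With no filter on low counts every gene with any count was tested, a larger set. The split of all genes called was then 2233 higher and 3823 lower, against 3518 and 3274 with the filter. Of the mitotic genes 5 rose and 3 fell in that fit. The mitotic median minus that of all tested genes was 0.057 with TMM and 0.065 with upper-quartile scaling. This difference was 0.003 with no filter, where all tested genes are the larger set. It was -0.009 without Sin3a CKO 4, -0.025 without Control 3 and 0.16 without Control 4, so its sign depended on single libraries.

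Among the 11 genes of mitotic entry 4 (36.4%) rose and 1 (9.09%) fell, against 17.3% and 16.1% of all tested genes. These shares are also the background for the counts of the roles that follow, each of which holds few genes. Cdca3, an F-box-like protein that promotes the destruction of the Cdk1 inhibitor Wee1, lies at chr6:124829547-124833701 and changed most. It was at 101, 117, 131 and 128 CPM in Sin3a CKO 1 to 4, against 82.6, 83.5, 73.7 and 91.5 CPM in Control 1 to 4. All Sin3a CKO libraries were above all Control libraries, with a log2 fold change of 0.53 ± 0.10 (SE; adjusted p = 0.00279), and the call held under all 16 alternative settings with a test. Cks1b (chr3:89415472-89418383) and Cks2 (chr13:51645232-51650660) encode small subunits that bind cyclin-dependent kinases. Cks1b was at 184, 208, 248 and 224 CPM in Sin3a CKO 1 to 4, against 163, 162, 143 and 173 CPM in Control 1 to 4. The groups did not overlap, with a log2 fold change of 0.43 ± 0.10 (SE; adjusted p = 0.00864). Cks2 was at 89.3, 105, 115 and 115 CPM in Sin3a CKO 1 to 4, against 81.1, 79.6, 71.2 and 82.2 CPM in Control 1 to 4. Here too the groups were apart, with a log2 fold change of 0.43 ± 0.09 (SE; adjusted p = 0.00595). Cks1b has 1126 and Cks2 692 exon bases, and fold changes over all genes varied with exon length. The median log2 fold change was 0.42 over 1722 tested genes of up to 1000 exon bases and 0.19 over 2982 genes of 1000 to 2000, against -0.043 over 6331 genes of 4000 to 8000. With trends in length and GC content removed, Cks2 was at 0.003 (adjusted p = 0.988) and Cks1b at 0.24 (adjusted p = 0.0571).

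The Cdc25 phosphatases, which remove the inhibitory phosphates of Cdk1, moved in opposite directions. Cdc25b (chr2:131186949-131198497) was at 33, 31.1, 36.3 and 37.4 CPM in Sin3a CKO 1 to 4, against 51.6, 42.5, 40.7 and 54.1 CPM in Control 1 to 4. All Sin3a CKO libraries were below all Control libraries, with a log2 fold change of -0.46 ± 0.11 (SE; adjusted p = 0.0102). Cdc25c was at 29.5, 31.9, 31.4 and 40.5 CPM in Sin3a CKO 1 to 4, against 24.8, 26.5, 23.2 and 27.4 CPM in Control 1 to 4. All Sin3a CKO libraries were above all Control libraries, with a log2 fold change of 0.39 ± 0.11 (SE; adjusted p = 0.0219). That call was lost without Control 1 (adjusted p = 0.0644) and without Control 3 (adjusted p = 0.0629). Counting by strand is not stated, and both genes share exon bases with a gene on the other strand. Cdc25b shares 92 with Spef1, at means of 6.28 CPM in Sin3a CKO and 5.51 CPM in Control libraries, and Cdc25c shares 623 with Gm3550, at 2.92 and 1.6 CPM in the same order.

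Cyclin B1 and the kinase it activates did not pass the test. Cdk1, the kinase that drives entry, was at 168, 189, 211 and 203 CPM in Sin3a CKO 1 to 4, against 171, 168, 156 and 186 CPM in Control 1 to 4. The groups overlapped, with a log2 fold change of 0.18 ± 0.09 (SE; adjusted p = 0.155). Ccnb1, which encodes its partner cyclin B1, was at 245, 245, 249 and 339 CPM in Sin3a CKO 1 to 4, against 248, 224, 200 and 289 CPM in Control 1 to 4. Sin3a CKO 4 was the highest of the 8 libraries and the other Sin3a CKO libraries lay within the Control range, with a log2 fold change of 0.16 ± 0.14 (SE; adjusted p = 0.424). With the prefix term both rose, Cdk1 by 0.27 (adjusted p = 0.0449) and Ccnb1 by 0.40 (adjusted p = 0.00404). The other members of the group had log2 fold changes of 0.011 for the kinase Aurka, -0.008 for cyclin A2 (Ccna2), -0.12 for cyclin B2 (Ccnb2) and -0.17 for the kinase Plk1. None of these 4 passed with or without the prefix term, and Plk1 fell by 0.28 on the log2 scale without Sin3a CKO 4 (adjusted p = 0.0387). Processed pseudogenes nearly identical to Ccnb1, Cks2 and Mki67 were at most at 1.86 CPM in any library.

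Among the 3 regulators and markers of proliferation 1 (33.3%) rose, against 17.3% of all tested genes. Mybl2 (chr2:163054687-163084688) encodes B-Myb, the partner of MuvB that turns on mitotic genes. It was at 62, 67.3, 71.5 and 84.3 CPM in Sin3a CKO 1 to 4, against 51, 52.2, 45 and 58.5 CPM in Control 1 to 4. Every Sin3a CKO library was above every Control library, with a log2 fold change of 0.46 ± 0.11 (SE; adjusted p = 0.00974), and the call held under all 16 alternatives. Foxm1, which encodes the other activator of these promoters, was at 89.8, 98.2, 90.9 and 112 CPM in Sin3a CKO 1 to 4, against 102, 95.5, 92.4 and 128 CPM in Control 1 to 4. Its groups overlapped, with a log2 fold change of -0.093 ± 0.12 (SE; adjusted p = 0.605). Mki67, which encodes the proliferation marker Ki-67, was at 277, 285, 261 and 353 CPM in Sin3a CKO 1 to 4, against 270, 252, 222 and 299 CPM in Control 1 to 4. Sin3a CKO 4 was the highest library and Control 3 the lowest, with a log2 fold change of 0.17 ± 0.12 (SE; adjusted p = 0.306). Mki67 rose with the prefix term, by 0.37 (adjusted p = 0.00454), and Foxm1, at 0.092 (adjusted p = 0.38), did not pass.

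In the spindle assembly checkpoint 1 of 5 genes (20%) rose, near the 17.3% of all tested genes. Mad2l1 (chr6:66535390-66547220) encodes Mad2, which binds and holds Cdc20 while kinetochores are unattached. It was at 109, 115, 118 and 139 CPM in Sin3a CKO 1 to 4, against 90, 81.5, 79.7 and 94.4 CPM in Control 1 to 4. The groups did not overlap, with a log2 fold change of 0.48 ± 0.09 (SE; adjusted p = 0.00334), and the call held under all 16 alternatives. Bub1b encodes BubR1, which joins Mad2 and Bub3 in the inhibitory complex, and was at 139, 137, 144 and 159 CPM in Sin3a CKO 1 to 4, against 175, 169, 142 and 194 CPM in Control 1 to 4. Control 1, 2 and 4 were above all Sin3a CKO libraries, and Control 3 lay among these, with a log2 fold change of -0.23 ± 0.10 (SE; adjusted p = 0.105). Without Sin3a CKO 4 it fell, by 0.31 on the log2 scale (adjusted p = 0.0293), and likewise without Control 3 (adjusted p = 0.0276). The kinase Ttk, also called Mps1, had a log2 fold change of 0.30 (adjusted p = 0.0934) and rose without Sin3a CKO 3 (adjusted p = 0.0464) or Control 4 (adjusted p = 0.0354). The kinase Bub1 was at 0.068 and its partner Bub3 at 0.041, and neither passed.

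**Figure D3:**
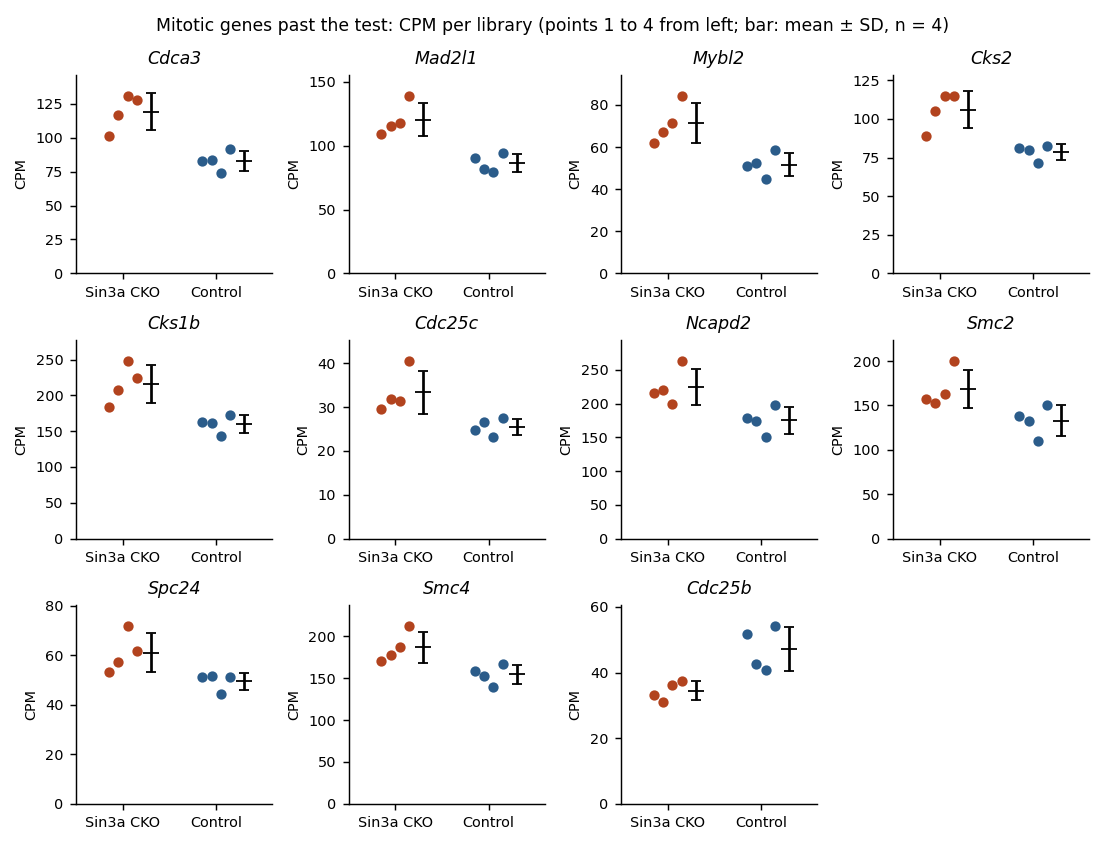
CPM by library for the 10 mitotic genes that rose and for Cdc25b, which fell, with Sin3a CKO on the left of each panel and the mean ± SD of 4 libraries as a bar. In each of these 11 genes the groups do not overlap.

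None of the 4 genes of the chromosomal passenger complex, which corrects faulty attachments, passed the test. Aurkb, its kinase, was at 121, 138, 138 and 148 CPM in Sin3a CKO 1 to 4, against 122, 126, 101 and 135 CPM in Control 1 to 4. Sin3a CKO and Control libraries overlapped, with a log2 fold change of 0.17 ± 0.10 (SE; adjusted p = 0.228). Birc5, which encodes the subunit survivin, was at 102, 120, 139 and 129 CPM in Sin3a CKO 1 to 4, against 130, 124, 112 and 125 CPM in Control 1 to 4. The Sin3a CKO libraries spread to both sides of the Control range, with a log2 fold change of -0.005 ± 0.10 (SE; adjusted p = 0.977). The scaffold Incenp was at 0.13 and Cdca8, which encodes borealin, at 0.080 on the log2 scale. With the prefix term Aurkb rose by 0.33 (adjusted p = 0.012) and Incenp by 0.30 (adjusted p = 0.00717).

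Of the 7 centromere and kinetochore genes 1 (14.3%) rose, near the 17.3% of all tested genes, and their median log2 fold change was 0.26. Spc24, Spc25, Ndc80 and Nuf2 make up the Ndc80 complex, the main microtubule attachment of the kinetochore. Spc24 (chr9:21755442-21760303) was at 53.3, 57.4, 71.7 and 61.5 CPM in Sin3a CKO 1 to 4, against 51.2, 51.4, 44.2 and 51.1 CPM in Control 1 to 4. The groups did not overlap, with a log2 fold change of 0.30 ± 0.10 (SE; adjusted p = 0.0421). This call was near the threshold: it was kept without Sin3a CKO 1 and lost without any of the other 7 libraries, with adjusted p between 0.0605 and 0.121. Nuf2 was at 58.9, 67, 64.5 and 75.5 CPM in Sin3a CKO 1 to 4, against 66, 66.7, 63.9 and 79.1 CPM in Control 1 to 4. The groups overlapped, with a log2 fold change of -0.052 ± 0.10 (SE; adjusted p = 0.743). Spc25 had a log2 fold change of 0.29 (adjusted p = 0.0515) and passed without Sin3a CKO 1 (adjusted p = 0.0279) or Control 4 (adjusted p = 0.0396), and Ndc80 was at 0.22 (adjusted p = 0.0963).

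Cenpf, a large protein of the outer kinetochore, had the largest change of the group. It was at 142, 148, 139 and 177 CPM in Sin3a CKO 1 to 4, against 120, 114, 98.4 and 148 CPM in Control 1 to 4. Control 4 reached the level of the lower Sin3a CKO libraries, with a log2 fold change of 0.33 ± 0.13 (SE; adjusted p = 0.0735). Without Control 4 Cenpf rose by 0.39 (adjusted p = 0.0177), and with the prefix term by 0.56 (adjusted p = 0.000457). Cenpa, the histone H3 variant that marks centromeres, was at 0.26 (adjusted p = 0.0505) and passed without Sin3a CKO 1 (adjusted p = 0.0232). Cenpe, a kinetochore motor, was at 0.12 (adjusted p = 0.462).

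Of the 6 genes of condensin and topoisomerase 3 (50%) rose, against 17.3% of all tested genes. Ncapd2 (chr6:125168007-125191701) encodes a regulatory subunit of condensin I. It was at 216, 220, 200 and 263 CPM in Sin3a CKO 1 to 4, against 178, 174, 150 and 198 CPM in Control 1 to 4. The groups did not overlap, with a log2 fold change of 0.36 ± 0.11 (SE; adjusted p = 0.0268). Smc2 (chr4:52439243-52488260) and Smc4 (chr3:69004738-69034623) encode the ATPase core shared by both condensins. Smc2 was at 157, 153, 163 and 200 CPM in Sin3a CKO 1 to 4, against 138, 133, 110 and 151 CPM in Control 1 to 4. Smc4 was at 170, 178, 187 and 212 CPM in Sin3a CKO 1 to 4, against 159, 152, 140 and 167 CPM in Control 1 to 4. In both genes all Sin3a CKO libraries were above all Control libraries. Smc2 had a log2 fold change of 0.34 ± 0.12 (SE; adjusted p = 0.0472), and Smc4 had a log2 fold change of 0.27 ± 0.09 (SE; adjusted p = 0.0397).

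The condensin calls depended on single libraries. Ncapd2 was lost without Sin3a CKO 2 or any of Control 1, 2 and 3 (adjusted p between 0.057 and 0.0717). Smc2 kept its call only without Control 4 and was lost without any of the other 7 libraries (adjusted p between 0.0566 and 0.113). Smc4 kept its call only without Sin3a CKO 1 (adjusted p otherwise between 0.0546 and 0.111). With length and GC trends removed Ncapd2 rose by 0.59 (adjusted p = 0.0017), whereas Smc2 was at 0.24 (adjusted p = 0.375) and Smc4 at 0.18 (adjusted p = 0.407). Exons of Ncapd2 share 237 bases with Scarna10 and 235 with Gm28967 on the same strand.

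The other condensin I subunits did not pass the test. Ncapg was at 91.7, 89.7, 89.1 and 119 CPM in Sin3a CKO 1 to 4, against 102, 91.1, 89.3 and 106 CPM in Control 1 to 4. The Sin3a CKO 4 library was above all Control libraries and the other Sin3a CKO libraries lay at the low end of the Control values, with a log2 fold change of 0.004 ± 0.11 (SE; adjusted p = 0.985). Ncaph was likewise at 0.004 (adjusted p = 0.984). Top2a, which encodes the topoisomerase that untangles sister chromatids, was at 374, 387, 349 and 436 CPM in Sin3a CKO 1 to 4, against 366, 344, 308 and 441 CPM in Control 1 to 4. Sin3a CKO 4 and Control 4 stood at about the same level, above the other libraries, with a log2 fold change of 0.082 ± 0.12 (SE; adjusted p = 0.652). Top2a rose with the prefix term, by 0.28 (adjusted p = 0.0143).

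None of the 8 kinesins and spindle proteins passed, and their median log2 fold change was -0.053, or 0.16 with the prefix term. Kif23, a motor of the central spindle, had the lowest value and the smallest p. It was at 93.5, 87.9, 77.4 and 113 CPM in Sin3a CKO 1 to 4, against 112, 101, 92.5 and 126 CPM in Control 1 to 4. Sin3a CKO 4 was above Control 1, 2 and 3, and Sin3a CKO 2 and 3 were below all Control libraries, with a log2 fold change of -0.22 ± 0.13 (SE; adjusted p = 0.242). Without Sin3a CKO 4 it fell by 0.35 (adjusted p = 0.0218). Kif18a, which dampens chromosome oscillation, had the highest value. It was at 35.4, 32, 28.4 and 42.8 CPM in Sin3a CKO 1 to 4, against 30.5, 29.6, 27.1 and 34.1 CPM in Control 1 to 4. Its ranges overlapped, with a log2 fold change of 0.19 ± 0.13 (SE; adjusted p = 0.299). The motor Kif11 was at -0.072, the central spindle motor Kif20a at -0.055, the chromokinesin Kif4 at -0.056 and the spindle assembly factor Tpx2 at -0.051. The microtubule depolymerase Kif2c was at 0.018 and Prc1, which bundles antiparallel microtubules, at 0.058. Of the 4338 exon bases of Kif20a, 1271 are shared with Cdc23 on the opposite strand, and reads in that stretch cannot be told apart without strand.

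The 2 cytokinesis genes were lower without passing the test. Anln encodes anillin, a scaffold of the contractile ring, and was at 121, 123, 100 and 138 CPM in Sin3a CKO 1 to 4, against 149, 134, 128 and 184 CPM in Control 1 to 4. Sin3a CKO 4 was above Control 2 and 3, and the other Sin3a CKO libraries were below all Control libraries, with a log2 fold change of -0.31 ± 0.13 (SE; adjusted p = 0.102). Without Sin3a CKO 4 it fell by 0.40 (adjusted p = 0.0245). Ect2, which activates RhoA at the division plane, was at 83.1, 79.5, 72 and 92.2 CPM in Sin3a CKO 1 to 4, against 86.4, 79.6, 77.4 and 106 CPM in Control 1 to 4. The groups overlapped, with a log2 fold change of -0.10 ± 0.12 (SE; adjusted p = 0.58). With the prefix term Anln was at -0.11 and Ect2 at 0.079, neither past the test.

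None of the 4 genes of anaphase onset passed either. Pttg1 encodes securin, the inhibitor of separase, and was at 70, 77.6, 95.1 and 136 CPM in Sin3a CKO 1 to 4, against 73.2, 74.4, 51.5 and 73.2 CPM in Control 1 to 4. Sin3a CKO 4 was far above the rest and Control 3 far below, and the remaining libraries overlapped, with a log2 fold change of 0.48 ± 0.21 (SE; adjusted p = 0.113). With the prefix term Pttg1 rose by 0.76 (adjusted p = 0.00178), the largest of the 50 values in that fit. Cdc20, the activator of the anaphase promoting complex, was at 159, 177, 192 and 207 CPM in Sin3a CKO 1 to 4, against 183, 178, 160 and 223 CPM in Control 1 to 4. The ranges of both groups overlapped, with a log2 fold change of -0.016 ± 0.12 (SE; adjusted p = 0.938). Espl1, which encodes separase, was at 0.25 (adjusted p = 0.236) and passed without Control 4 (adjusted p = 0.0456). Ube2c, which supplies ubiquitin to the complex, was at 0.16 (adjusted p = 0.316).

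The same libraries give the S phase genes as a measure to set these against. Of 60 genes of DNA replication and S phase 32 (53.3%) rose and 0 fell, against 17.3% and 16.1% of all tested genes. Their median log2 fold change was 0.32. With the prefix term 46 (76.7%) rose, against 19.4% of all tested genes, with a median of 0.42. With upper-quartile scaling 29 rose and 3 fell, against 13.7% and 22.3% of all tested genes, with a median of 0.22. Chaf1b, which encodes part of the chromatin assembly factor CAF-1, was at 117, 126, 131 and 163 CPM in Sin3a CKO 1 to 4, against 61.3, 62.2, 53.2 and 62.2 CPM in Control 1 to 4. All Sin3a CKO libraries were far above all Control libraries, with a log2 fold change of 1.17 ± 0.11 (SE; adjusted p = 7.77e-05). Dscc1, of the cohesion clamp loader, had a log2 fold change of 1.04 ± 0.11 (SE; adjusted p = 0.000121). Gins2 and Gins4, of the replicative helicase, had 0.93 ± 0.10 (adjusted p = 0.000138) and 0.83 ± 0.09 (adjusted p = 0.000156), and the cyclin Ccne1 1.15 ± 0.13 (adjusted p = 0.000212). The largest change of a mitotic gene, 0.53 for Cdca3, was below each of these 5.

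**Figure D4:**
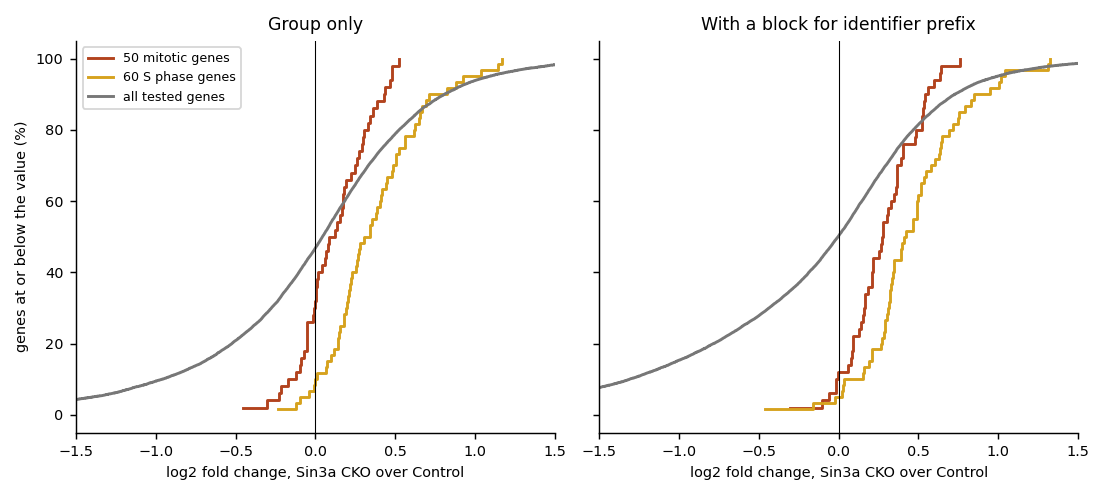
Cumulative share of genes (y axis, percent) at or below each log2 fold change, Sin3a CKO over Control, for the mitotic genes, the S phase genes and all tested genes, with group as the only term (left) and with a prefix term (right). The medians on the left are 0.10 for 50 mitotic genes, 0.32 for 60 S phase genes and 0.044 for 20315 tested genes.

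Summed over all 50 genes, the mitotic level was 6306, 6669, 6717 and 7841 CPM in Sin3a CKO 1 to 4, against 6482, 6181, 5534 and 7353 CPM in Control 1 to 4. The groups overlapped, at 6883 ± 664 CPM in Sin3a CKO and 6388 ± 756 CPM in Control libraries (SD, n = 4 each), a ratio of 1.08. The S phase sum was 7058, 7498, 7710 and 8618 CPM in Sin3a CKO 1 to 4, against 6243, 6163, 5719 and 6835 CPM in Control 1 to 4. Here all Sin3a CKO libraries were above all Control libraries, at 7721 ± 656 CPM in Sin3a CKO and 6240 ± 459 CPM in Control libraries (SD, n = 4 each), a ratio of 1.24. Divided by the S phase sum of its own library, the mitotic sum was 0.893, 0.889, 0.871 and 0.91 in Sin3a CKO 1 to 4, against 1.04, 1, 0.968 and 1.08 in Control 1 to 4. This ratio was lower in every Sin3a CKO library than in every Control library, at 0.891 ± 0.0159 in Sin3a CKO and 1.02 ± 0.0464 in Control libraries (SD, n = 4 each), also within s686 and within s1244. No p is given for sums over chosen genes.

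**Figure D5:**
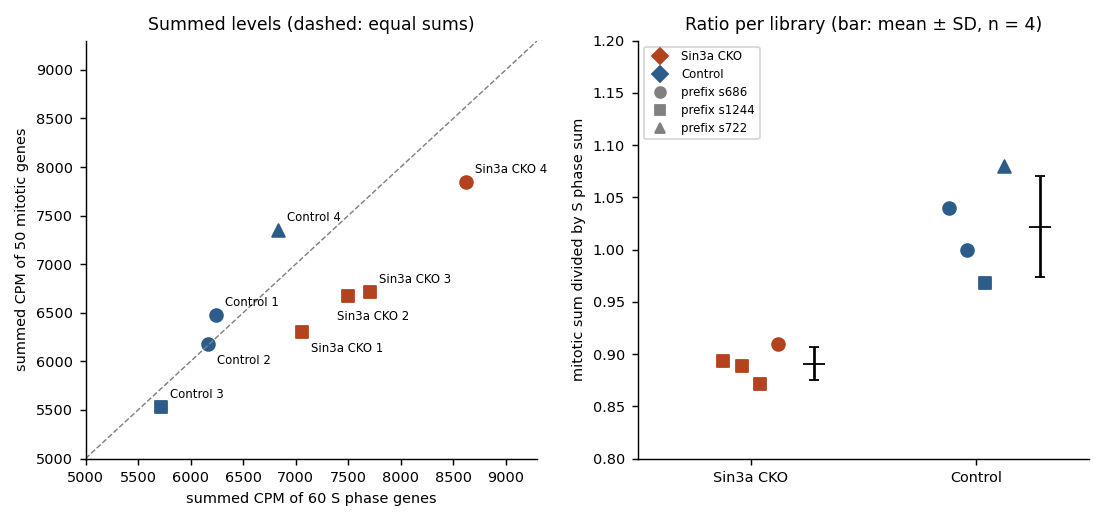
Left, summed CPM of the 50 mitotic genes against that of the 60 S phase genes in each library. Right, the ratio of both sums, which lies between 0.871 and 0.91 in Sin3a CKO libraries and between 0.968 and 1.08 in Control libraries.

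Marker genes of several cell types moved with the groups as well, where 17.3% of all tested genes rose and 16.1% fell. Of 13 erythroid markers 6 rose and 2 fell, of 12 mesenchyme markers 1 rose and 6 fell, and of 7 smooth muscle markers 6 fell, with smooth muscle sums of 1467 to 1598 CPM in Sin3a CKO libraries and 1745 to 2647 CPM in Control libraries. Of 10 endothelial markers 2 fell, with sums of 74.3 to 155 CPM in Sin3a CKO and 94 to 293 CPM in Control libraries. All 10 endothelial markers fell with the prefix term, against 16.3% of all tested genes. Their median log2 fold change was -1.10 with that term, against -0.45 with group only. Of 10 neuronal and glial markers 3 fell, with sums of 6.61 to 9.18 CPM in Sin3a CKO and 8.78 to 18.1 CPM in Control libraries. Of 7 mesothelial markers 1 fell, with sums of 30.5 to 66.1 CPM in Sin3a CKO and 37.8 to 68.1 CPM in Control libraries. None of 12 epithelial and 10 tested immune markers passed, and immune sums were 239 to 398 CPM in Sin3a CKO and 18.3 to 526 CPM in Control libraries. No marker was at 0 in all libraries. Sin3a CKO 4, which had the highest mitotic sum, had the lowest erythroid sum (1113 CPM) and epithelial sum (49.5 CPM) of the Sin3a CKO libraries. Its erythroid sum was still above that of every Control library (157 to 932 CPM). Control 1 and 2, of the same prefix, were at 243 and 258 CPM. The part of these cells in the mitotic and S phase fold changes was not tested.

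Further genes of the same pathways included larger changes. Of 37 other kinetochore and centromere genes 13 (35.1%) rose and 1 (2.7%), Spdl1, fell, against 17.3% and 16.1% of all tested genes. Their median log2 fold change was 0.17. Cenpx, of the inner kinetochore, was at 84.4, 96.7, 119 and 102 CPM in Sin3a CKO 1 to 4, against 36.8, 38.7, 36.5 and 34.4 CPM in Control 1 to 4. All Sin3a CKO libraries were far above all Control libraries, with a log2 fold change of 1.46 ± 0.10 (SE; adjusted p = 2.99e-05). Cenpm, also of the inner kinetochore, had a log2 fold change of 0.95 ± 0.10 (SE; adjusted p = 0.000148), and Cenpp a log2 fold change of 0.91 ± 0.10 (SE; adjusted p = 0.000172). Of 15 genes of this list named Cenp, a series that encodes centromere proteins, 10 rose and 0 fell, among them Cenph, Cenpk, Cenpl, Cenpo, Cenpt, Cenpu and Cenpw. This grouping was chosen after its values were seen.

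Of 33 other spindle and cytokinesis genes 4 (12.1%) rose and 1 (3.03%), Numa1, fell, against 17.3% and 16.1% of all tested genes. Their median was 0.12. Haus7 and Haus1 encode subunits of augmin, which branches spindle microtubules. Haus7 was at 87.2, 97, 111 and 113 CPM in Sin3a CKO 1 to 4, against 45.3, 49.2, 41.6 and 48 CPM in Control 1 to 4. The groups were far apart, with a log2 fold change of 1.15 ± 0.10 (SE; adjusted p = 5.63e-05). Haus1 had a log2 fold change of 0.73 ± 0.09 (SE; adjusted p = 0.000219), and Psrc1, a microtubule binding protein, a log2 fold change of 0.62 ± 0.10 (SE; adjusted p = 0.00122). Of 17 genes of the anaphase promoting complex and its regulators 5 (29.4%) rose and 4 (23.5%) fell, with a median of -0.058. Anapc5, a scaffold subunit, fell with a log2 fold change of -0.52 ± 0.07 (SE; adjusted p = 0.00065), while the subunit Anapc7 rose with a log2 fold change of 0.42 ± 0.06 (SE; adjusted p = 0.000785) and the inhibitor Fbxo5, or Emi1, with a log2 fold change of 0.33 ± 0.07 (SE; adjusted p = 0.00508).

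Of 16 condensin II and cohesin genes 2 (12.5%) rose and 1 (6.25%) fell, against 17.3% and 16.1% of all tested genes. Their median was 0.11. Esco2, which acetylates cohesin during S phase, rose with a log2 fold change of 0.87 ± 0.10 (SE; adjusted p = 0.000189), the cohesin core subunit Smc3 rose with a log2 fold change of 0.31 ± 0.08 (SE; adjusted p = 0.0172), and the subunit Stag1 fell with a log2 fold change of -0.50 ± 0.10 (SE; adjusted p = 0.00508). With length and GC trends removed Esco2 was at 0.69 (adjusted p = 0.0541). Of 20 other G2/M regulators 3 (15%) rose and 3 (15%) fell, near the shares of all tested genes, with a median of 0.044. Wee1, the kinase that inhibits Cdk1, was at 132, 132, 123 and 170 CPM in Sin3a CKO 1 to 4, against 90.4, 82.8, 77.4 and 101 CPM in Control 1 to 4. The groups did not overlap, with a log2 fold change of 0.66 ± 0.12 (SE; adjusted p = 0.00217). Cdkn3, a phosphatase of cyclin-dependent kinases, had a log2 fold change of 0.95 ± 0.12 (SE; adjusted p = 0.000331), and Pimreg, listed as Fam64a, fell with a log2 fold change of -0.44 ± 0.08 (SE; adjusted p = 0.00264).

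Of 15 genes of the DREAM and MuvB complexes and NF-Y, which bind the promoter elements printed above, 7 (46.7%) rose and 3 (20%) fell. Their median was 0.35, and the shares over all tested genes were 17.3% and 16.1%. E2f5 was at 43.5, 42.4, 43.8 and 49.7 CPM in Sin3a CKO 1 to 4, against 31.7, 28.2, 28.9 and 30.6 CPM in Control 1 to 4. The groups did not overlap, with a log2 fold change of 0.59 ± 0.08 (SE; adjusted p = 0.000419). The MuvB subunit Lin54, which binds the CHR, rose with a log2 fold change of 0.76 ± 0.13 (SE; adjusted p = 0.00144), and the subunit Lin37 with a log2 fold change of 0.79 ± 0.13 (SE; adjusted p = 0.00147). The genes that fell were Nfyc, Tfdp1 and Rbl1. With upper-quartile scaling more genes of the other lists fell: 4 of the kinetochore list, 4 of the spindle list, 9 of the anaphase promoting complex, 3 of condensin II and cohesin and 5 of the G2/M regulators. Falls among the DREAM and MuvB genes stayed at 3. Of all tested genes 22.3% fell with that scaling, against 16.1% with TMM. With length and GC trends removed the median of the DREAM and MuvB genes was 0.19.

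In the fit with the prefix term 19.4% of all tested genes rose and 16.3% fell. Of the 37 kinetochore genes 21 (56.8%) rose and 0 fell, with a median of 0.28. Of the 33 spindle genes 17 (51.5%) rose and 0 fell, with a median of 0.33. Of the condensin II and cohesin genes 8 rose and 1 fell, with a median of 0.24, and of the G2/M regulators 8 rose and 2 fell, with a median of 0.23. Spdl1, at -0.33 (adjusted p = 0.0611), and Numa1, at -0.28 (adjusted p = 0.0664), no longer passed. Of the anaphase promoting complex list 4 rose and 3 fell in that fit, with a median of 0.071, and of the DREAM and MuvB list 9 rose and 2 fell, with a median of 0.40.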

How the data were processed

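RNA-seq was made from sorted lung mesenchymal cells with a SMARTer v4 and Nextera XT kit, per the labels' protocols. The table the authors deposited holds expected counts by gene for 8 libraries, all of them whole numbers. Per the submitters' processing notes, the tools named are STAR 2.5.3a, RSEM 1.3.0 and edgeR, and the build is mm10. The role of each, the annotation release and the strand setting are not stated. The counts carry no molecular identifiers, so they include PCR copies.

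Group and replicate number came from the sample titles. The software was edgeR 4.0.16 in R 4.3.3. Genes passing filterByExpr at a minimum count of 10 (20315 of 51912) were scaled by TMM and tested for Sin3a CKO over Control with the 2-sided quasi-likelihood test, a robust dispersion estimate and no term but group. A Benjamini-Hochberg adjusted p under 0.05 over all tested genes counted as a call, and "rose" and "fell" are used of calls. The SE of a log2 fold change is its size over the square root of the F statistic. CPM are on TMM-scaled totals, and per-length levels are CPM per kilobase of exon. The labels do not say which animals the replicates came from, and p-values measure the spread between these libraries.

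Alternatives were upper-quartile or RLE scaling, DESeq2 1.42.0, limma-voom (limma 3.58.1), no filter, blocks for identifier prefix or replicate number, removal of trends in exon length and GC content by splines with 4 degrees of freedom, and each library left out. Coordinates, exon lengths and exon overlaps came from GENCODE M21, promoter windows from RefSeq, and near-identical copies were sought with BLAST 2.17.0 at 95% identity over 80% of a transcript.

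The members, gene lists and tests were chosen with earlier results of these data known. Values are given in full for Cdk1, Ccnb1, Mki67, Top2a, every member past the test, and per role the members with the smallest p and the largest and smallest change. Of other pathway lists the 3 genes with the smallest p are given, and of the S phase list 5. Any other gene outside the 50 was named after its values were seen. Of 282 genes in the lists 281 were in the table, 4 of them by an older symbol.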

Additional observations from a re-analysis of the deposited data

Results flagged for a closer look

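In 9 of 106 groups of 4 values examined (the 50 mitotic genes and 3 sums, in each group), 1 library stood apart, with a gap to its neighbour above Dixon's critical share of the group's range. Chance gives about 1 in 20 such groups where groups are independent. These genes come from the same libraries and moved together by library, so the 9 cannot be set against that rate. Sin3a CKO 4 accounted for 6 of the 9, each time as the highest Sin3a CKO library. It had 339 CPM of Ccnb1 where the other Sin3a CKO libraries had 245 to 249, 119 CPM of Ncapg against 89.1 to 91.7, and 130 CPM of Ncaph against 104 to 105. It also had 242 CPM of Kif20a against 182 to 187, 205 CPM of Prc1 against 169 to 174, and 200 CPM of Tpx2 against 171 to 173. Control 4 was high for Bub1, at 120 CPM where the other Control libraries had 92 to 92.4. Control 3 was low for Spc24, at 44.2 CPM against 51.1 to 51.4, and for Pttg1, at 51.5 CPM against 73.2 to 74.4. Of these genes only Spc24 passed the test between groups.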

How the results depend on the processing

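Of 50 mitotic genes 11 were called (10 higher in Sin3a CKO, 1 lower), and the number of all genes called was 6792. Alternatives gave 9 (8 and 1) with RLE scaling, 13 (7 and 6) with upper-quartile scaling, 8 (5 and 3) with no filter, 16 (13 and 3) with DESeq2, 12 (11 and 1) with limma-voom and 13 (12 and 1) with length and GC trends removed. The number of all genes called was 6932, 7312, 6056, 7860, 6992 and 6795 under these, in the same order. The block for identifier prefix gave 28 (all higher), with 7245 of all genes. Leaving out 1 library gave 6 (without Control 1) to 13 (without Control 4) called genes, with 7 without Sin3a CKO 2, Control 2 or Control 3. Of all genes 5305 were called without Control 1 and 6735 without Control 4. The number was 5523, 5396 and 5852 without Sin3a CKO 2, Control 2 and Control 3. Without Sin3a CKO 4 the balance was 7 higher and 5 lower, against 2927 higher and 3427 lower among all genes. Of the mitotic genes 14% then rose, against 14.4% of all tested genes. The median log2 fold change of the 50 genes was 0.10, and 0.27 with the prefix block, 0.29 within s686 and 0.26 within s1244. It was 0.001 with upper-quartile scaling and 0.002 with no filter. With 1 library left out it ran from 0.012 (without Sin3a CKO 4) to 0.14 (without Sin3a CKO 1 or Control 4). No called gene changed sign. Cdca3, Mad2l1 and Mybl2 kept their calls under all 16 alternatives, Cks1b, Cks2 and Cdc25b under 15, Cdc25c under 13, Ncapd2 under 11, Smc4 under 6, and Spc24 and Smc2 under 5. With no filter Cdc25c was at an adjusted p of 0.107. The S phase list had 24 to 46 called genes of 60 under these alternatives, against 32. The 24 came without Control 3 and the 46 with the prefix block, where 5852 and 7245 of all genes were called.

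Replicate numbers did not pair the samples: deviations of same-numbered libraries correlated at -0.27, 0.281, -0.0993 and 0.269, and 2 of 8 libraries correlated best with their own number. With a block for replicate number 15 genes were called, at a median of 0.11. Library totals were 96098322 to 108493347 counts, and counting error was not separated from the spread between libraries.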

Other observations

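Levels per length place the 50 genes over a wide range in both groups. Exon length here is that of all annotated exons of a gene together, 1126 bases for Cks1b and 9832 for Kif18a. The order thus depends on the annotation, and the length of the transcripts present was not measured. Per kilobase of exon, Cks1b was highest, at 192 CPM in Sin3a CKO and 142 CPM in Control libraries. It was followed in Control libraries by Cks2, at 153 CPM per kilobase in Sin3a CKO and 113 in Control libraries, and by Ccnb2, at 93.2 in Sin3a CKO and 101 in Control libraries. Cdc20 came next, at 98.4 CPM per kilobase in Sin3a CKO and 99.5 in Control libraries. Kif18a was lowest, at 3.52 CPM per kilobase in Sin3a CKO and 3.09 in Control libraries, with Cdc25c next, at 6.78 in Sin3a CKO and 5.18 in Control libraries.

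Exons of 15 of the 50 genes overlap exons of another annotated gene. Ccna2 shares 510 exon bases with Exosc9 on the opposite strand, and Exosc9 rose with a log2 fold change of 0.58 (adjusted p = 0.00106). Cdc20 shares 53 with Elovl1, which rose by 0.67 (adjusted p = 0.000129), and Cdca8 shares 232 with 9930104L06Rik, which rose by 0.71 (adjusted p = 0.00203). On the opposite strand too, Ncapg shares 944 with Lcorl, Prc1 911 with Rccd1 and Kif4 832 with Pdzd11, and none of these neighbours passed. Lcorl was at means of 113 CPM in Sin3a CKO and 110 CPM in Control libraries, against 97.4 and 97.2 CPM for Ncapg. How reads of these stretches were assigned is not stated. These neighbours were named after their values were seen.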
